A study of Mus musculus with 8 samples.

Results

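The genes that present peptides to T cells lie mostly in the major histocompatibility complex (MHC), which in the mouse is the H2 region of chromosome 17. Every gene whose symbol begins with H2- was taken, together with the 8 genes Cd74, B2m, Tap1, Tap2, Tapbp, Ciita, Psmb8 and Psmb9. The choice rests on names and not on any measured value. It found 54 symbols in all, 49 of the 26457 gene loci measured in unperturbed keratinocytes, 50 of the 47990 after hair plucking and 50 of the 46726 in wounds, and 45 symbols were present in all 3 data sets. Of the 54 symbols, 32 are class I genes, 12 are class II genes, 6 are partners of class I, 2 are partners of class II, and 2 (H2-Ke2 and H2-Ke6) carry an H2 name but do not present antigen. The classes include entries that GENCODE M21 lists as pseudogenes (H2-K2, H2-Q3, H2-M6-ps, H2-M10.5-ps1, H2-Pa and H2-Pb). H2-Bl, H2-T10, H2-Q5 and H2-Ea-ps are listed there as polymorphic pseudogenes.

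Class I molecules are made by nearly all nucleated cells, keratinocytes included. Their heavy chain pairs with beta-2 microglobulin (B2m) and holds a peptide that the immunoproteasome has cut and that the TAP transporter has carried into the endoplasmic reticulum. Class II molecules are made chiefly by professional antigen presenting cells, in the epidermis by Langerhans cells and in the dermis by dendritic cells and macrophages, and by other cells after exposure to interferon gamma. They are built from an alpha and a beta chain, are escorted by the invariant chain Cd74, and have their peptides exchanged by H2-DM, while the transactivator Ciita switches their genes on.

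The study asked how the loss of the AP-1 transcription factor JunB from the epidermis alters gene expression under normal conditions, after wounding and after hair plucking. The mice were C57BL/6, either wild type (JunB +/+) or JunB cKO (JunB -/-), in which floxed JunB alleles are removed by a Cre recombinase under the K14 promoter. This promoter acts in basal epidermal cells, so dermal and immune cells of the JunB cKO mice keep the gene. Each library was made from the joined RNA of 3 samples of a group, and the labels list 8 libraries. The unperturbed samples are keratinocytes by their labels, although the study speaks of skin, and those after injury are skin biopsies. Unperturbed mice received no treatment and were 60 days old (1 library per genotype). Hair was plucked at 54 days and the skin was taken at 58 days, 4 days later (1 library per genotype). Wounds were taken 30 days after a full-thickness excision from mice whose age is not given in the sources used here (2 libraries per genotype, for which the data hold a single joint value). Each gene therefore has 1 value per genotype in each condition, in FPKM (reads of a transcript normalised for its length and for the size of the library). No test of differential expression was run and no error between mice is given, since the data used hold 1 value per genotype and condition. The words "higher" and "lower" below compare 2 values. Where a pair of values is given, the wild type value comes first. Ratios are given as log2((JunB cKO + 1)/(wild type + 1)) of FPKM, which understates differences of genes with low values.

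Promoters of both classes are known for short shared elements, and 6 promoters are shown because their genes give the main products of each class or the widest gap after hair plucking. All are the 180 bases before the RefSeq start on GRCm38.p6, written along the strand of the gene. Of the class II genes, H2-Eb1 (chr17:34305687-34305866, + strand), H2-Aa (chr17:34287824-34288003, - strand) and H2-DMb1 (chr17:34153011-34153190, + strand) are shown first, followed by the class I genes H2-K1 (chr17:34000348-34000527, - strand) and H2-D1 (chr17:35262914-35263093, + strand) and their partner B2m (chr2:122147507-122147686, + strand). Capitals mark, where they occur, the X box and the Y box of class II promoters (the letters CTGATTGG, an inverted CCAAT box), the pentamer CCAAT or its reverse ATTGG, the palindrome TGACGTCA, an AP-1 site (TGANTCA), an NF-kB site and an interferon element.
H2-Eb1: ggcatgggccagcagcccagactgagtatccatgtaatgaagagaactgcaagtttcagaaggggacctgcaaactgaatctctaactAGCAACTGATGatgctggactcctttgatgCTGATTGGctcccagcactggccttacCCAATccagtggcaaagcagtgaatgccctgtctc
H2-Aa: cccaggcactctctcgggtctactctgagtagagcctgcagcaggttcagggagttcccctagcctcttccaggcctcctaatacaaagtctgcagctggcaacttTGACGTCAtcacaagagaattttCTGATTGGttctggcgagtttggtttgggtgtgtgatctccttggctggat
H2-DMb1: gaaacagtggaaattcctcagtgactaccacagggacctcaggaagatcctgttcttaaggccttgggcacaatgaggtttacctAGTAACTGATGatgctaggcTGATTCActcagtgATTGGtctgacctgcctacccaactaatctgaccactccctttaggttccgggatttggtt
H2-K1: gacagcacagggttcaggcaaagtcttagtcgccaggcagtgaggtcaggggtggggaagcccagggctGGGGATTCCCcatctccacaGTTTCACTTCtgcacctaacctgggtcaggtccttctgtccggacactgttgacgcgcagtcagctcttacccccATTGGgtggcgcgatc
H2-D1: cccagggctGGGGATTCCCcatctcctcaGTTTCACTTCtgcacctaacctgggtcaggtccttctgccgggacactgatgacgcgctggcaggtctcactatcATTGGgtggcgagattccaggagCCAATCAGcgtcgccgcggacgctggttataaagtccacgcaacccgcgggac
B2m: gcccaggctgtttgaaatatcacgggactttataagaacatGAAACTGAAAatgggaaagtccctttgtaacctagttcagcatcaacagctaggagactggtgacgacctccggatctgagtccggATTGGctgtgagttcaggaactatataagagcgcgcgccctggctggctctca

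In H2-Eb1 the X box lies 92 to 82 bases before the start and the Y box 62 to 55 bases before it. H2-Aa holds a Y box at 51 to 44 bases and the palindrome at 74 to 67 bases before its start. In H2-DMb1, which codes for the beta chain of the peptide editor H2-DM, an X box at 95 to 85 bases is followed by an AP-1 match at 75 to 69 bases and by a CCAAT box at 61 to 57 bases. The capitals that open the H2-K1 line, at 111 to 102 bases, are the NF-kB site, and those that follow at 91 to 82 bases are the interferon element of class I genes. H2-D1 has the same pair of elements in the same order and spacing, further from its RefSeq start at 171 to 162 and 151 to 142 bases. B2m holds another form of interferon element, 139 to 130 bases before its start, and a CCAAT box.

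RefSeq promoters of 300 bases (250 before and 50 after the start) were found for 36 of the 54 genes, and both strands were searched. The X box was present in 4 of 8 class II promoters (H2-Oa, H2-DMb1, H2-Eb1 and H2-Eb2), in 4 of 22 class I promoters and in 0.999% of the 27025 promoters of the genome. The Y box was found in 4 of 8 class II and 13 of 22 class I promoters against 4.31% of all promoters, and so did not separate the classes. The NF-kB site was found in 4 of 22 class I promoters (H2-K1, H2-D1, H2-Q6 and H2-Q7) against 0.104% of all promoters. The general interferon element marked in B2m was found in 2 of 22 class I promoters (H2-T23 and H2-T22), in 0 of 8 class II promoters and, of 5 partner promoters, in B2m alone, against 3.49% of all promoters. The form of class I genes, searched after the promoters had been read, was found in 7 of 22 (H2-K1, H2-D1, H2-Q4, H2-Q6, H2-Q7, H2-Q10 and H2-M3) against 0.141% of all promoters. AP-1 sites, the class of element that JunB can bind, were matched in 1 of 8 class II and 2 of 22 class I promoters (H2-DMb1, H2-M10.3 and H2-M1) against 7.93% of all promoters. The palindrome TGACGTCA, also searched after reading, was matched in H2-Aa and in 1.88% of all promoters. Many class I genes are copies of each other, so their shared letters are not independent, and a match is not evidence that a factor was bound.

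Junb itself was lower in every JunB cKO sample, at 31.4 against 268 FPKM in unperturbed keratinocytes, 11.7 against 40.8 after hair plucking and 15.4 against 33.4 in wounds. The unperturbed samples had 2592 and 2690 FPKM of the basal keratin Krt5 in wild type and JunB cKO and 2.66 and 2.58 FPKM of the collagen Col1a1. The hair plucking samples are also labelled keratinocyte but are described as biopsies, and with Col1a1 at 1168 and 527 FPKM they contained dermis. A value of 1 FPKM for a transcript of 1 kilobase was worth about 13.3 reads in the unperturbed wild type library and 3.92 in the JunB cKO library, 12.9 and 10.2 after hair plucking, and 33.7 and 31.3 in wounds, as read from the smallest steps in the data. In the unperturbed JunB cKO library 1251 of 1453 odorant, vomeronasal and taste receptor genes, which skin is not known to use, had a value above 0 (median 0.543 FPKM), against 69 in the wild type library. Over the 11995 loci of at least 1 FPKM in both unperturbed libraries, the median log2 ratio was -0.15. Centring on it turned the sign of the unperturbed ratios of the named members H2-T24, H2-Ab1, Psmb9 and Cd74. Members below 1 FPKM in this library can therefore not be read as expressed, and counts are given above 1 FPKM beside those above 0. The intervals quoted below cover counting error only, at 95%, and are approximate.

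The classical class I heavy chains H2-K1 and H2-D1, which present peptides to CD8 T cells, were lower in the unperturbed JunB cKO sample and higher in JunB cKO wounds. H2-K1 (ENSMUSG00000061232, chr17:33996017-34000347) measured 668 FPKM in unperturbed wild type and 473 in JunB cKO, a log2 ratio of -0.50 (-0.55 to -0.44). After hair plucking it measured 361 and 443 FPKM (0.29, 0.25 to 0.34), and in wounds 267 and 323 FPKM (0.28, 0.25 to 0.31). The sign in unperturbed keratinocytes was thus opposite to that in the skin biopsies after both injuries, samples that differ in tissue as well as in treatment. H2-D1 (ENSMUSG00000073411, chr17:35262730-35267499) went from 385 in wild type to 242 FPKM in JunB cKO in unperturbed keratinocytes (-0.67, -0.74 to -0.60), whereas in wounds it went from 183 to 282 FPKM (0.62, 0.59 to 0.66). After hair plucking the H2-D1 values of 146 and 158 FPKM were closer (0.12, 0.05 to 0.18). No locus named H2-L was listed.

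B2m, the light chain of every class I molecule (ENSMUSG00000060802, chr2:122147686-122153083), had the highest FPKM of all members in each sample and did not share the sign of the heavy chains in unperturbed keratinocytes. It measured 2087 FPKM in unperturbed wild type and 2428 in JunB cKO (0.22, 0.18 to 0.25), 2363 and 3257 after hair plucking (0.46, 0.44 to 0.49), and 3443 and 4180 in wounds (0.28, 0.27 to 0.29). It was thus higher in JunB cKO in all 3 conditions. The ratio of B2m to the summed FPKM of all class I genes was 1.45 in unperturbed wild type and 2.45 in JunB cKO. It was 3.80 and 4.18 after hair plucking, and 6.06 and 5.50 in wounds.

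Among the other class I genes, those of the Q, T and M series, the named members are the ones with at least 5 FPKM in any condition and those with the largest ratios. H2-T23, which codes for Qa-1, the ligand of the NKG2A receptor of natural killer cells, had 108 and 66.1 FPKM in unperturbed wild type and JunB cKO (-0.70), 29.7 and 34.5 after hair plucking (0.21) and 20.3 and 29.5 in wounds (0.52). H2-Q7, which codes for the Qa-2 antigen, had 81.6 and 64.2 FPKM (-0.34), 11.4 and 24.6 (1.05) and 19.1 and 25.9 (0.42) in the same order. H2-Q6, a close relative of H2-Q7, had 25.6 and 15.4 FPKM (-0.70), 13.6 and 21.2 (0.60), and 17.7 and 24.96 (0.47). All of them were lower in JunB cKO in unperturbed keratinocytes and higher after both injuries, as H2-K1 and H2-D1 were.

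H2-Q4 had 75.7 and 53.0 FPKM in unperturbed wild type and JunB cKO, 30.1 and 41.7 after hair plucking, and 24.2 and 29.2 in wounds. For H2-T22, whose product is a ligand of some gamma delta T cells, the values were 65.5 and 49.5 FPKM, then 14.2 and 23.4, and then 12.1 and 13.9. Both followed the same order of signs. H2-T10, a near copy of H2-T22, was at 3.38 and 2.90 FPKM in unperturbed keratinocytes, at 0.827 and 5.53 after hair plucking (1.84, 1.42 to 2.25) and at 1.61 and 1.33 in wounds, where it was lower in JunB cKO. H2-T24 had 5.16 and 5.06 FPKM, 8.51 and 7.37, and 5.58 and 6.57, and was the only class I gene above 0 to be lower in JunB cKO after hair plucking (-0.18, -0.44 to 0.07).

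Of the M series, H2-M2 followed the same order of signs and H2-M3 did not. H2-M3, which presents formylated peptides of bacteria, was lower in JunB cKO in unperturbed keratinocytes, with 7.34 and 3.93 FPKM (-0.76, -1.28 to -0.24), the most negative ratio among members of at least 1 FPKM there. After hair plucking it had 2.87 and 4.58 FPKM, and in wounds 7.56 and 5.11, where it was again lower in JunB cKO (-0.49, -0.69 to -0.28). H2-M2 had 9.27 and 6.35 FPKM in unperturbed keratinocytes, 1.23 and 7.08 after hair plucking (1.86, 1.43 to 2.29) and 2.37 and 4.35 in wounds (0.67, 0.41 to 0.93). H2-K2 was listed at 0 in wild type after hair plucking and at 2.63 FPKM in JunB cKO, against 3.21 and 1.61 in unperturbed keratinocytes and 1.86 and 1.51 in wounds. With its pseudocount of 1 this gives the most positive ratio after hair plucking (1.86), a value that depends on the pseudocount. In wounds the most positive ratio was that of H2-Q10, at 0.173 and 1.82 FPKM (1.27, 1.06 to 1.48).

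The partners of class I supply and load its peptides. Tap1, a subunit of the peptide transporter, had 63.3 and 55.8 FPKM in unperturbed wild type and JunB cKO (-0.18), 20.7 and 33.8 after hair plucking (0.68, 0.55 to 0.81), and 21.4 and 30.6 in wounds (0.50, 0.42 to 0.57). Tap2, the other subunit, had 23.2 and 19.7 FPKM (-0.22), 24.3 and 15.0 (-0.66, -0.80 to -0.52), and 17.9 and 20.4 (0.18). After hair plucking the transporter subunits thus differed in opposite directions between the genotypes. Psmb8 and Psmb9 are catalytic subunits of the immunoproteasome. Psmb8 had 21.6 and 21.8 FPKM in unperturbed keratinocytes (0.01), 12.3 and 21.9 after hair plucking (0.79) and 19.1 and 25.4 in wounds (0.39), and Psmb9 had 32.5 and 29.5 (-0.14), 20.4 and 24.7 (0.27) and 21.7 and 26.4 (0.27). Tapbp, which bridges class I molecules to the transporter, had 69.5 and 48.7 FPKM in unperturbed keratinocytes (-0.50, -0.63 to -0.37). In the other data sets it was measured only as a joint locus with its neighbour Zbtb22, at 69.5 and 50.8 FPKM after hair plucking and 57.9 and 59.4 in wounds, and was not counted.

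Tap1 and Psmb9 are read in opposite directions from a shared promoter, their RefSeq starts being 226 bases apart, so that their 300-base windows overlap over 275 bases. Both were higher in JunB cKO after either injury. In unperturbed keratinocytes Tap1 had -0.18 (-0.30 to -0.05), while the genotypes did not differ beyond counting error for Psmb9 (-0.14, -0.38 to 0.11). Centred on the median ratio of that condition, Tap1 had -0.02 and Psmb9 0.02. In the plucking and wound data the reads of Tap1 and Psmb9 were assembled as 1 locus, as were those of Tap2 and Psmb8, so that these values rest on the authors' division of a locus. The same holds for H2-T22, H2-T23 and H2-T24, and for H2-Oa and H2-Pa, in both injuries, and for H2-T23 and H2-T24 in unperturbed keratinocytes. Some loci reached beyond their gene, such as that of B2m (122120108 to 122186189). The H2-D1 locus ended at 35282104 in unperturbed keratinocytes and after hair plucking, but at 35267499 in wounds. After hair plucking the H2-T10 locus (36109227 to 36129692) took in the place where H2-T9 was listed in unperturbed keratinocytes. How this bears on their values was not tested.

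**Figure D1:**
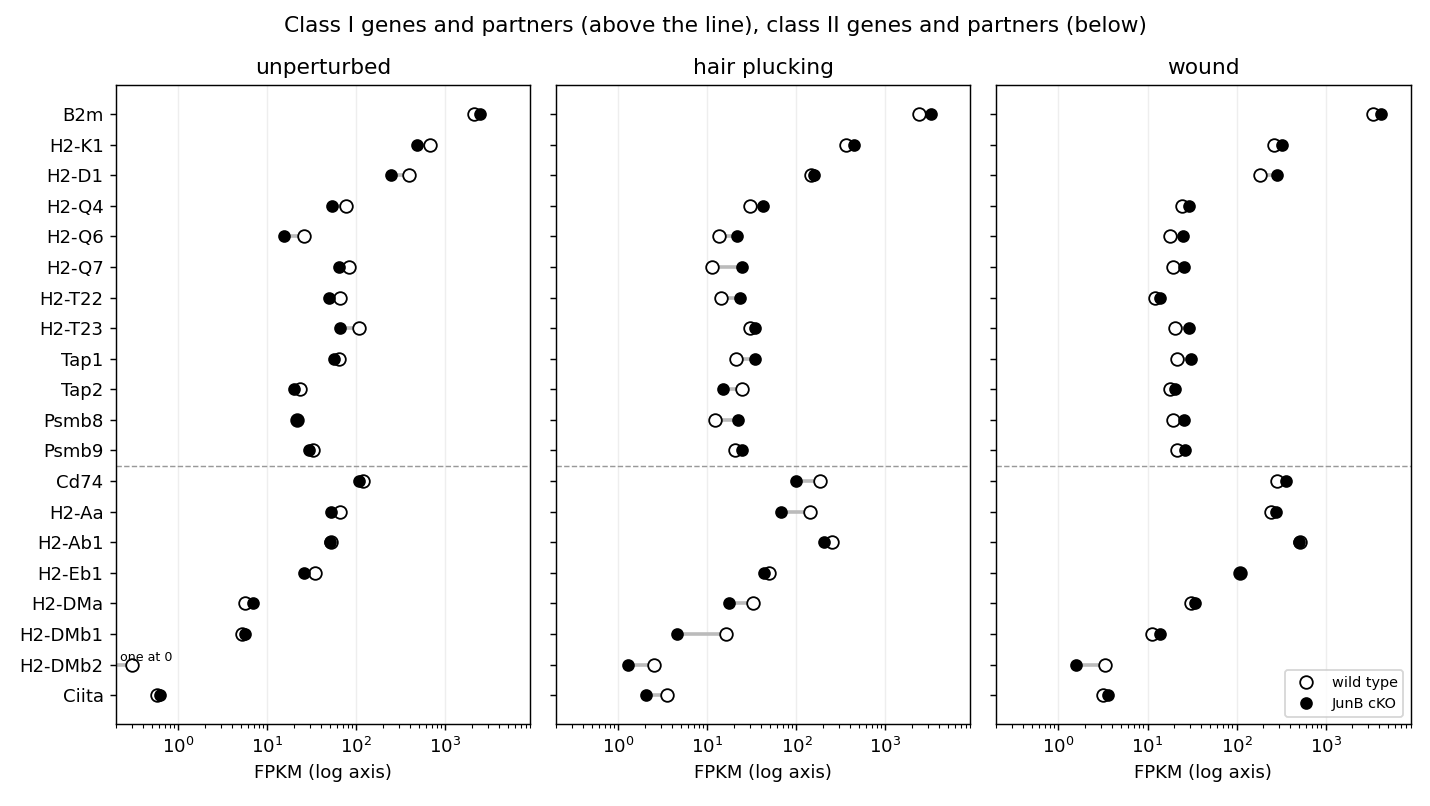
FPKM of named class I genes and partners (above the dashed line) and class II genes and partners (below it) in each of the 3 conditions, on a log axis. Open circles are wild type, filled circles JunB cKO, each 1 value; the filled circles of H2-K1 and H2-D1 lie left of the open ones in unperturbed keratinocytes and right of them in both other panels, while after hair plucking the filled circles of all class II genes and partners drawn lie to the left.

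The class II chains form the molecule that presents peptides to CD4 T cells, and after hair plucking they were lower in JunB cKO, unlike class I. H2-Aa, the alpha chain of I-A (ENSMUSG00000036594, chr17:34282744-34287823), had 143 and 67.7 FPKM after hair plucking (-1.07, -1.19 to -0.95), against 66.1 and 52.4 in unperturbed keratinocytes (-0.33, -0.53 to -0.13) and 244 and 279 in wounds (0.19, 0.15 to 0.23). H2-Ab1, its beta chain (ENSMUSG00000073421, chr17:34257689-34269419), had 250.2 and 206 FPKM after hair plucking (-0.28, -0.35 to -0.21), 52.2 and 50.5 in unperturbed keratinocytes (-0.04, -0.25 to 0.16) and 517 and 509 in wounds (-0.02, -0.05 to 0.01). In unperturbed keratinocytes and in wounds the genotypes did not differ beyond counting error for H2-Ab1. H2-Eb1, the beta chain of I-E (ENSMUSG00000060586, chr17:34305867-34316674), had 48.8 and 43.4 FPKM after hair plucking (-0.16, -0.30 to -0.03), 34.4 and 25.8 in unperturbed keratinocytes (-0.40, -0.63 to -0.17) and 108 and 111 in wounds (0.03, -0.02 to 0.08).

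The chains of I-A did not keep a fixed proportion. The ratio of H2-Aa to H2-Ab1 in FPKM was 1.27 in unperturbed wild type and 1.04 in JunB cKO, 0.572 and 0.328 after hair plucking, and 0.472 and 0.548 in wounds. H2-Ea-ps, the disabled alpha chain gene of I-E in this strain, was at 0 in all but the unperturbed JunB cKO value (0.818 FPKM). H2-Eb2 had at most 0.946 FPKM, H2-Pb at most 0.653, and H2-Pa was at 0 wherever it was listed. The unperturbed JunB cKO values of H2-Ea-ps, H2-Eb2 and H2-Pb were below 1 FPKM. Receptor genes had a median of 0.543 FPKM in that library.

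H2-DMa, H2-DMb1 and H2-DMb2 code for the editor that exchanges class II peptides. After hair plucking H2-DMb1 had 16.2 and 4.58 FPKM, the most negative ratio among members of at least 1 FPKM (-1.63, -1.95 to -1.30), against 5.19 and 5.55 in unperturbed keratinocytes (0.08, -0.41 to 0.58) and 11.2 and 13.9 in wounds (0.29, 0.14 to 0.45). H2-DMa, the alpha chain of the same editor, had 32.7 and 17.7 FPKM after hair plucking (-0.85, -1.04 to -0.66), 5.61 and 6.91 in unperturbed keratinocytes (0.26, -0.17 to 0.69) and 30.8 and 34.1 in wounds (0.14, 0.05 to 0.24). Both chains of H2-DM were thus lower in JunB cKO after hair plucking and slightly higher in wounds. H2-DMb2, the other beta chain gene, had 2.48 and 1.29 FPKM after hair plucking (-0.61), 0.303 and 0 in unperturbed keratinocytes and 3.34 and 1.57 in wounds, where it had the most negative ratio of the members of at least 1 FPKM (-0.76, -1.02 to -0.49). H2-DMb1 shares 15.8% of its windows of read length with H2-DMb2, and in wounds the former was higher and the latter lower in JunB cKO, so the split of reads between them is uncertain.

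H2-Oa and H2-Ob make H2-DO, which restrains H2-DM and is known mainly from B cells. H2-Oa had 0.139 and 1.29 FPKM in unperturbed keratinocytes, about 2 and 6 reads, 0.207 and 0 after hair plucking, and 0.503 and 1.20 in wounds. H2-Ob had 0.0240 and 0.975 FPKM, 0 and 0.764, and 1.93 and 1.44. The unperturbed ratio of H2-Oa (1.01) was the most positive among members of at least 1 FPKM and rests on a few reads in the library in which receptor genes also had values above 0. Cd79a, a B cell marker, did not exceed 0.534 FPKM in any sample.

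Cd74, the invariant chain, had 118 and 108 FPKM in unperturbed wild type and JunB cKO (-0.14, -0.27 to -0.01). It had 183 and 98.6 FPKM after hair plucking (-0.89, -0.98 to -0.80) and 283 and 357 in wounds (0.33, 0.30 to 0.37). Like the class II chains, it was lower in JunB cKO after hair plucking. In wounds it was higher, while H2-Ab1 and H2-Eb1 did not differ beyond counting error. The ratio of Cd74 to the sum of H2-Aa, H2-Ab1 and H2-Eb1 was 0.774 and 0.835 in unperturbed keratinocytes. It was 0.415 and 0.311 after hair plucking, and 0.325 and 0.397 in wounds. Ciita, which controls the class II genes, had 0.581 and 0.615 FPKM in unperturbed keratinocytes, 3.53 and 2.03 after hair plucking (-0.58, -0.80 to -0.36) and 3.15 and 3.55 in wounds (0.13, 0.01 to 0.25). Both were thus lower in JunB cKO after hair plucking and higher in wounds. In unperturbed keratinocytes Ciita was below 1 FPKM in both genotypes.

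Set against each other, the classes parted after hair plucking. Of the class I genes, 14 had a value above 0 there and 17 were at 0 in both genotypes. Of these 14, 13 were higher in JunB cKO and 1 was lower, with a median log2 ratio of 0.56, and all 14 had at least 1 FPKM; of all loci of at least 1 FPKM, 51.3% were higher and 48.7% lower, with a median of 0.03. Of the 12 class II genes 8 had a value above 0 (median -0.44), and all 6 of at least 1 FPKM were lower (median -0.73). The class II median less the class I median was -1.01 over genes above 0 and -1.29 over genes of at least 1 FPKM. By a limit of 2-fold, 5 members were higher in JunB cKO (H2-K2, H2-M2, H2-T10, H2-Q5 and H2-Q7, of which H2-K2 and H2-Q5 were listed at 0 in wild type), out of 29 above 0, where 15.7% of all loci above 0 were. H2-K2 is a pseudogene entry, and H2-T10 and H2-Q5 are polymorphic pseudogene entries. The 2 that were lower by this limit were H2-DMb1 and H2-Aa, against 13.6% of all loci. As shares of the 29 members, these 2-fold counts are near or below those of all loci.

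In unperturbed keratinocytes, 26 class I genes had a value above 0, of which 12 were higher and 14 lower in JunB cKO (median -0.08). The 12 that were higher were, with the exception of H2-T9 (1.66 and 2.93 FPKM), below 1 FPKM. Of the 14 class I genes of at least 1 FPKM, 13 were lower (median -0.49), where 52.8% of all loci were lower (median -0.03). Of the 10 of at least 5 FPKM, all 10 were lower (median -0.50), but so were 75.4% of all loci of that level (median -0.21), a direction shared by most loci of that level. The class II genes had a median of 0.26 over the 11 above 0, of 0.02 over the 6 of at least 1 FPKM and of -0.04 over the 5 of at least 5 FPKM. Of all 47 members above 0, 1 was at least 2-fold higher (H2-Oa), against 10.3% of loci, and 0 were 2-fold lower, against 0.954%. H2-Ke2 and H2-Ke6, which do not present antigen, had 25.5 and 15.9 FPKM and 28.2 and 21.02 FPKM in wild type and JunB cKO.

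In wounds, 23 class I genes had a value above 0, with 15 higher and 8 lower in JunB cKO (median 0.26). Of the 17 of at least 1 FPKM, 14 were higher (median 0.42), where 51.5% of all loci were higher (median 0.01). The 3 that were lower were H2-M3, H2-K2 and H2-T10. The class II median was 0.03 over 9 genes above 0 and 0.09 over the 8 of at least 1 FPKM, of which 5 were higher and 3 lower. Of all 39 members above 0, 1 was at least 2-fold higher (H2-Q10), against 3.85% of loci, and 0 were 2-fold lower, against 3.51%.

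**Figure D2:**
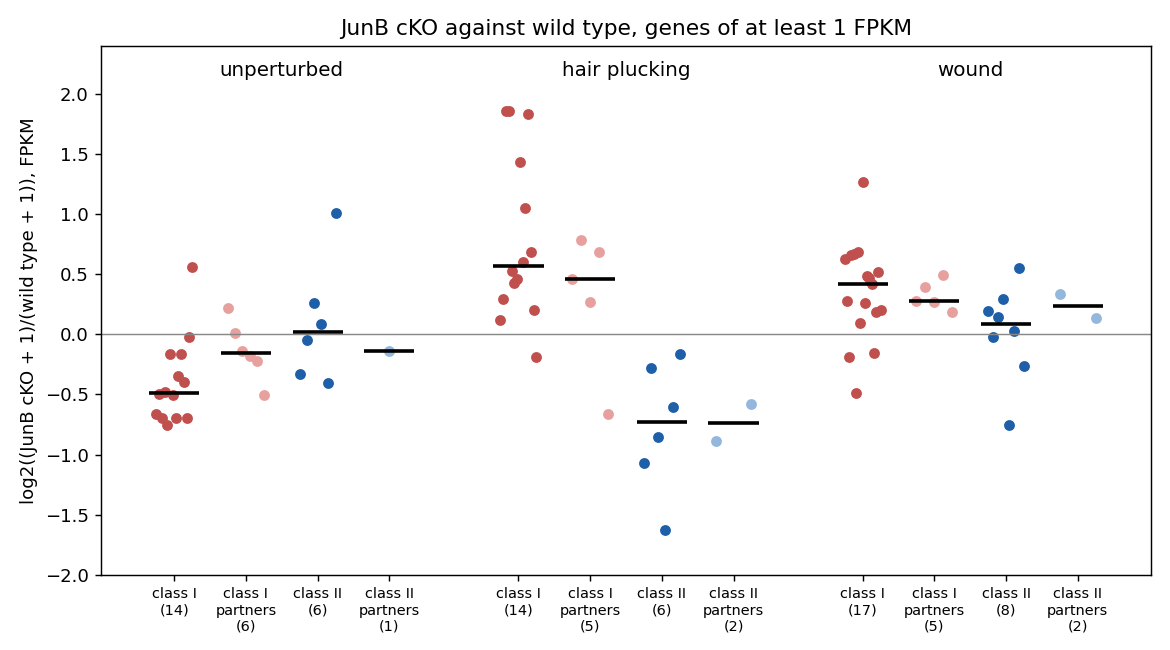
Log2 ratio of JunB cKO to wild type (FPKM + 1) of each member of at least 1 FPKM in either genotype, by class and condition, with the number of genes in brackets. Each point is 1 gene, the black bars are medians; the class I bar lies at -0.49 and the class II bar at 0.02 in unperturbed keratinocytes, at 0.56 and -0.73 after hair plucking, and at 0.42 and 0.09 in wounds.

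The sum of the main products shows the same. H2-K1 and H2-D1 together had 1053 FPKM in unperturbed wild type and 715 in JunB cKO, 507 and 602 after hair plucking, and 449 and 605 in wounds. H2-Aa, H2-Ab1 and H2-Eb1 together had 153 and 129 FPKM, 442 and 317, and 868 and 898. The ratio of class II to class I was therefore 0.145 in unperturbed wild type and 0.180 in JunB cKO, 0.872 and 0.528 after hair plucking, and 1.93 and 1.48 in wounds. In both genotypes it was lowest in unperturbed keratinocytes and highest in wounds, and after both injuries it was lower in JunB cKO. The data sets were normalised separately and hold different tissue fractions, so the order across conditions is given as values side by side.

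Along chromosome 17 the class II genes and the peptide transporter lie between the class I genes H2-K1 and H2-D1. After hair plucking the signs of the members counted went mostly with the class of the gene. H2-K1 on one side and H2-D1 on the other were higher in JunB cKO, and the 6 class II genes of at least 1 FPKM between them were lower. Psmb9, Tap1 and Psmb8, which lie among the class II genes, were higher. Tap2, next to Psmb8, was lower, and H2-T24 was lower among the class I genes beyond H2-D1. Joint loci were not counted. That of Tapbp and Zbtb22 was lower in JunB cKO (-0.44). The joint locus of H2-Ke6, which does not present antigen, and Slc39a7 was higher (1.13), and H2-Ke6 lies between H2-K1 and the class II genes.

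**Figure D3:**
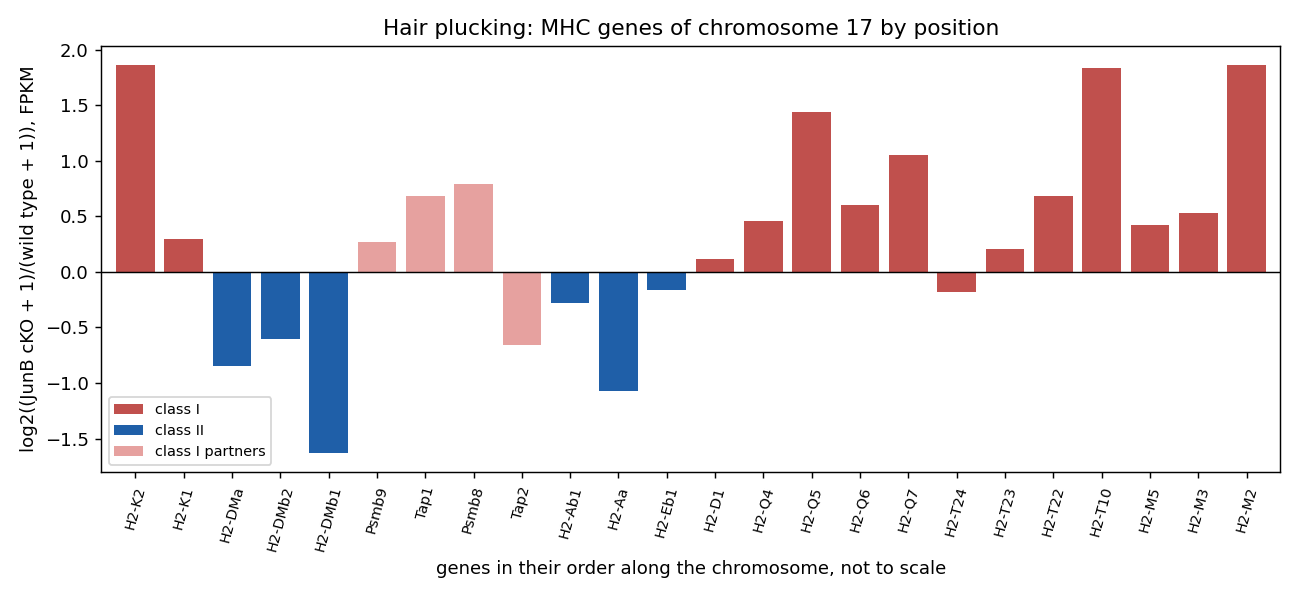
Log2 ratio of JunB cKO to wild type (FPKM + 1) after hair plucking of the members on chromosome 17 with at least 1 FPKM, in their order along the chromosome and not to scale. The joint loci of Tapbp with Zbtb22 and of H2-Ke6 with Slc39a7 are not drawn. Class I genes are red, class II genes blue and class I partners pale red; the 6 blue bars all point down, and of the others only Tap2 (-0.66) and H2-T24 (-0.18) do.

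Near-identical genes could exchange reads. Of the windows of 75 bases (the read length) in the GENCODE M21 transcripts, H2-K1 shared 3.10% with another gene, H2-D1 5.40%, H2-T23 5.91% and H2-Q4 7.02%. The share was 17.9% for H2-Q6, 16.95% for H2-Q7, 21.2% for H2-Q5, 12.5% for H2-Q10, 18.5% for H2-T22 and 16.05% for H2-T10, so these values are less certain one by one. B2m, H2-Aa, H2-Ab1, H2-Eb1, H2-DMa, H2-M2, H2-M3, Tap1, Tap2, Psmb8, Psmb9, Cd74 and Ciita shared 0 windows. Over class I genes of at least 1 FPKM that shared at most 10% of their windows, the median log2 ratio was -0.50 in unperturbed keratinocytes (10 genes), 0.43 after hair plucking (9 genes) and 0.28 in wounds (11 genes).

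Other genes of the pathways were described from lists made by function. Nlrc5, the transactivator of class I genes as Ciita is of class II genes, had 41.6 and 23.6 FPKM in unperturbed wild type and JunB cKO (-0.79), 42.9 and 66.5 after hair plucking (0.62) and 26.3 and 39.7 in wounds (0.57). Its sign was the same as that of H2-K1 and H2-D1 in each condition. Of the 10 other class I pathway genes, all of at least 5 FPKM in unperturbed wild type, 9 were lower there in JunB cKO (median -0.23), beside 75.4% of all loci of that level (median -0.21). In the other conditions 6 were higher and 4 lower after hair plucking (median 0.05), and 5 were higher and 5 lower in wounds (median 0.06). Of all loci above 0, 52.2% were higher after hair plucking and 48.2% in wounds. By the 2-fold limit, the proteasome activator subunit Psme2 had 39.9 and 229 FPKM after hair plucking, the peptide editor Tapbpl had 14.5 and 5.74, and the immunoproteasome subunit Psmb10 had 7.68 FPKM in wild type and was listed at 0 in JunB cKO. Among class I-like genes outside the H2 region, of which 2 were higher and 3 lower in JunB cKO after hair plucking, Hfe, which regulates iron uptake, had 10.9 and 3.42 FPKM, and Cd1d1, which presents lipids, had 8.04 FPKM and was listed at 0 in JunB cKO.

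Of the other class II pathway genes, 8 of the 10 above 0 were lower in JunB cKO after hair plucking (median -0.50). In unperturbed keratinocytes 4 of 11 were lower (median 0.08), and in wounds 5 of 11 were (median 0.05). Of all loci above 0, 52.2% were higher after hair plucking (median 0.04). The share was 62.5% in unperturbed keratinocytes (median 0.23) and 48.2% in wounds (median -0.02). Ctss, the protease that trims the invariant chain, had 68.6 and 35.2 FPKM in wild type and JunB cKO after hair plucking (-0.94), 3.69 and 5.21 in unperturbed keratinocytes and 108 and 105 in wounds. Cd86, a costimulatory molecule, had 12.4 and 4.06 FPKM after hair plucking (-1.41). Of the subunits of the X box binding complex, Rfx5 had 5.40 and 16.3 FPKM after hair plucking (1.43) and 9.07 and 6.05 in wounds (-0.51), while Rfxap had 29.96 and 28.3 FPKM (-0.08) and 13.3 and 30.4 FPKM (1.13).

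Interferon gamma induces both classes. Ifng itself was at 0 in both genotypes after hair plucking and did not exceed 0.598 FPKM elsewhere. Of 7 genes of its signalling list above 0 after hair plucking, 6 were lower in JunB cKO (median -0.44), among them Irf1 (30.6 and 7.77 FPKM, -1.85) and Irf2 (41.4 and 20.0 FPKM, -1.01), whose products bind interferon elements. In wounds 7 of 8 were higher (median 0.28) and in unperturbed keratinocytes 4 of 9 were (median -0.05). Of all loci above 0, 52.2% were higher after hair plucking, 48.2% in wounds and 62.5% in unperturbed keratinocytes.

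Most macrophage, general leukocyte and fibroblast markers were lower in JunB cKO after hair plucking, as class II genes were. Of all loci of at least 1 FPKM, 48.7% were lower. Of the 9 macrophage and monocyte markers 8 were lower in JunB cKO there (summed 168 and 50.8 FPKM in wild type and JunB cKO), including the macrophage surface protein Adgre1 (9.98 and 2.26 FPKM), and of the 6 general leukocyte markers 5 were lower (summed 99.1 and 39.2 FPKM), including Ptprc, which codes for CD45 (25.7 and 10.3 FPKM). All 6 fibroblast markers were also lower (summed 5109 and 1856 FPKM). Langerhans and dendritic cell markers were mixed, with 3 higher and 3 lower and a sum of 20.4 and 21.5 FPKM. Cd207 (langerin), a marker of Langerhans cells, had 8.40 and 15.8 FPKM, Cd209a, a marker of dermal dendritic cells, had 7.89 and 1.15 FPKM, and Itgax had 1.91 and 1.70 FPKM. The T cell markers had summed values of 44.9 and 23.2 FPKM, of which Cd3g had 39.6 and 20.6 and Cd3e 2.53 and 2.64, with Cd3d and Trac at 0 in both genotypes and Cd4 and Cd8a at 0 in JunB cKO. Of the B cell markers Cd79a, Cd79b and Pax5 were at 0 in both genotypes and Ms4a1 in JunB cKO. Flt3 and Batf3 of the dendritic cell list were also at 0 in both, and the leukocyte marker Cd52 was at 0 in JunB cKO. Keratinocyte markers were higher in 4 of 8 (summed 10519 and 11594 FPKM), with Krt5 at 614 and 845 FPKM and Krt14 at 2446 and 1709 FPKM. The part of these cells in the class II values was not tested. In a tissue extract, fewer cells of a type and less RNA per cell cannot be told apart.

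In unperturbed samples the same markers were low. Ptprc had 2.097 and 1.91 FPKM in wild type and JunB cKO and the macrophage markers a sum of 7.09 and 13.0 FPKM over 8 genes, in a JunB cKO library in which receptor genes had a median of 0.543 FPKM, while Cd207 had 23.4 and 15.2 FPKM beside H2-Aa at 66.1 and 52.4 FPKM. Cd207 was the only 1 of 9 Langerhans and dendritic cell markers to be lower in JunB cKO (summed 25.3 and 22.6 FPKM). The 8 that were higher had at most 1.31 FPKM, and 62.5% of all loci above 0 were higher. Col1a1 was near 0, as given above, and the summed keratinocyte markers had 12776 and 13882 FPKM. In wounds the macrophage sums were 279 and 273 FPKM, the leukocyte sums 136 and 173 FPKM and the fibroblast sums 10532 and 13412 FPKM in wild type and JunB cKO, and Ptprc had 35.2 and 42.5 FPKM.

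**Figure D4:**
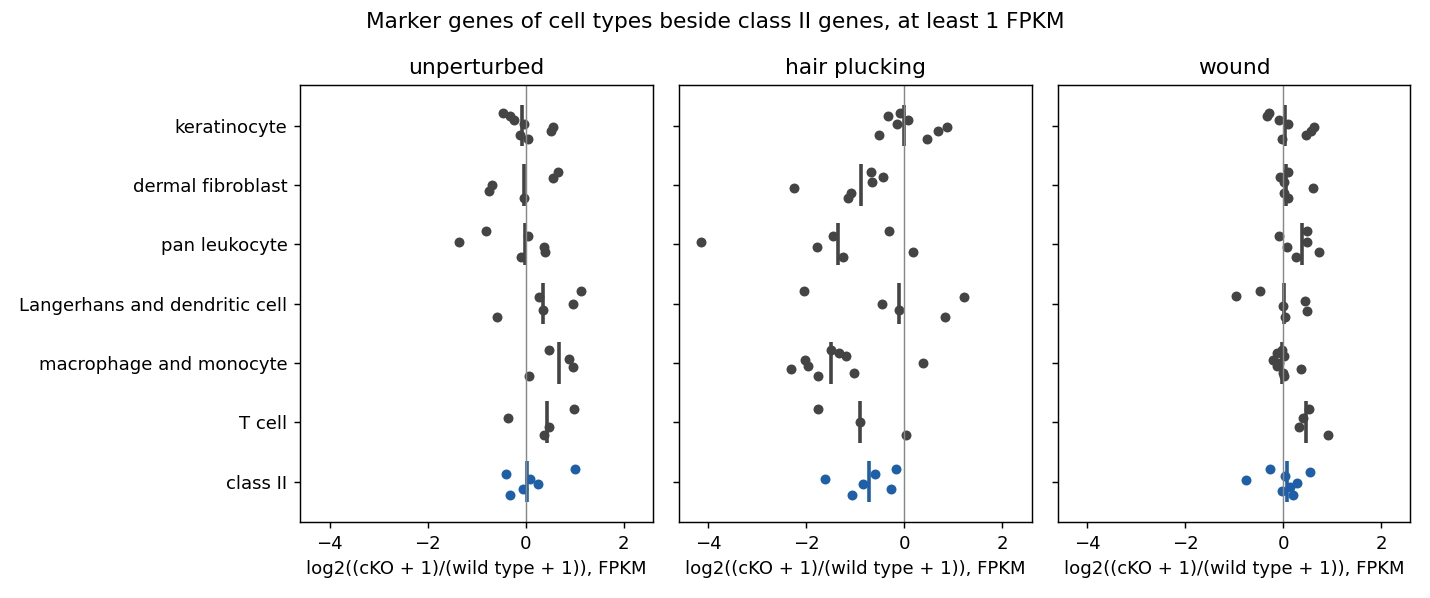
Log2 ratio of JunB cKO to wild type (FPKM + 1) of marker genes of at least 1 FPKM, by cell type, beside the class II genes, in each condition. Each point is 1 gene and the vertical ticks are medians; after hair plucking the macrophage and monocyte tick (-1.49) and the class II tick (-0.73) both lie left of 0, whereas in wounds they lie at -0.03 and 0.09.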

How the data were processed

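Keratinocytes (unperturbed) and dorsal skin biopsies (after injury) of wild type and JunB cKO mice were measured by RNA-seq (8 libraries). Each library held the RNA of 3 samples; rRNA was removed, and stranded single reads of 75 bases were obtained. The authors trimmed the reads, aligned them to GRCm38 (mm10) with TopHat and HISAT2, and built loci with Cufflinks. The deposited tables hold 1 FPKM value per genotype and locus, calculated by the authors with Cuffdiff, which normalised each of the 3 tables separately. They also hold the authors' fold changes, p-values and q-values, which were not used. For hair plucking and wounds, only the table names give the condition, and the wound table does not separate its 2 libraries per genotype.

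Members and gene lists were chosen with earlier results of these data known. Per symbol, the locus of largest summed FPKM was to be taken, but each member had 1 locus per table. Loci with several symbols were not counted. A pseudocount of 1 and a limit of 2-fold were used. No test of expression was run, since there is 1 value per genotype. The genes named were all class II genes, H2-K1, H2-D1 and the 8 partner genes, other class I genes of at least 5 FPKM and those with the largest ratio in each direction among members of at least 1 FPKM, pathway genes at least 2-fold apart with at least 5 FPKM, and some regulators and markers. H2-T9, Col1a1, H2-Ke2, H2-Ke6, H2-Q5, Cd209a, Cd3g and the markers listed at 0 were named after their values were seen. Some genes of these lists are not reported here.

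Depth was estimated from the lowest values of genes with 1 exon and 880 to 1000 bases, which mark the value of 1 read. Counting intervals (95%) follow from the reads so estimated; reads are not independent molecules, and the intervals hold no difference between mice. A script was tested on simulated data. Positions count from 1 on GRCm38, and identifiers are those of GENCODE M21. Promoters come from RefSeq (GRCm38.p6). Python 3.11.15, pandas 2.3.3, numpy 2.4.6 and matplotlib 3.10.9 were used. Alternatives were pseudocounts of 0.1 and 0.01, minimum values of 1 and 5 FPKM, centring on the median ratio, subtraction of the receptor gene median, loci with status OK only, classical genes only, class I genes with few shared windows, sums over loci and a limit of 1.5-fold.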

Additional observations from a re-analysis of the deposited data

Results flagged for a closer look

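Several ratios had opposite signs in different conditions, each from 1 value per genotype, and the differences between conditions were not tested. The median log2 ratio of class I genes above 0 was -0.076 in unperturbed keratinocytes and 0.56 after hair plucking. The class II median was 0.26 in unperturbed keratinocytes and -0.44 after hair plucking. The class II median less the class I median was 0.34 in unperturbed keratinocytes, against -1.01 after hair plucking and -0.23 in wounds. Of single genes, H2-D1 had -0.67 in unperturbed keratinocytes and 0.62 in wounds, H2-T23 had -0.70 and 0.52 in the same conditions, and H2-Q6 had -0.70 in unperturbed keratinocytes and 0.60 after hair plucking. The unperturbed samples held few fibroblast transcripts and the others many, so condition and tissue fraction cannot be told apart.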

How the results depend on the processing

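No paired analysis was possible because the wound values of the numbered libraries are not held apart; for the same reason the planned omission of each wound replicate and the limma fit were not run. Summing over loci changed no value, as each member had 1 locus per data set. Of 75 alternative values of the 9 medians and differences of medians, 72 kept their sign. The 3 that did not were unperturbed class I after centring and unperturbed class II for classical genes and at 5 FPKM. Some of the 72 were fixed in advance. The receptor gene median was 0 after hair plucking and in wounds, and centring cannot change a difference of medians. Medians are called moved beyond 0.1 on the log2 scale, counts beyond 1.5 times. Values of members below 1 FPKM are limited by depth. The minimum of 5 FPKM and the restriction to few shared windows were chosen after seeing the data.

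In unperturbed keratinocytes the class I median of -0.08 became -0.49 at a minimum of 1 FPKM and with status OK, -0.50 at 5 FPKM and with few shared windows, -0.41 with the receptor median subtracted, -0.58 for classical genes and 0.078 after centring. The class II median of 0.26 became 0.019 (1 FPKM and status OK), -0.045 (5 FPKM), 0.15 (receptor), -0.33 (classical) and 0.41 (centring). Their difference of 0.34 became 0.51 (1 FPKM and status OK), 0.46 (5 FPKM) and 0.56 (receptor). The 1 member at least 2-fold higher became 15 with both lower pseudocounts, 4 after centring, 0 with the receptor median subtracted and 9 at 1.5-fold. The 0 lower became 1 (pseudocount 0.1), 2 (pseudocount 0.01), 1 (receptor) and 6 (1.5-fold). At the main setting 10.3% of all loci above 0 were 2-fold higher and 0.954% 2-fold lower. The shares of all loci at the other settings were not calculated, so these counts are not read as particular to the members.

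After hair plucking the class II median of -0.44 became -0.89 (pseudocount 0.1), -0.91 (0.01), -0.73 (1 FPKM), -0.61 (status OK), -0.85 (5 FPKM) and -0.28 (classical). The difference of -1.01 became -1.53, -1.57, -1.29, -1.17, -1.38 and -0.48 in the same order. The class I median of 0.56 became 0.21 (classical) and 0.43 (few shared windows). At 1.5-fold, 10 members were higher and 6 lower, and the share of all loci at this limit was not calculated.

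In wounds the class I median of 0.26 became 0.42 (1 FPKM), 0.45 (status OK) and 0.45 (classical), and the difference of -0.23 became -0.33, -0.36 and -0.42. The class II median of 0.03 became 0.14 (5 FPKM). The 1 member higher became 4 with both lower pseudocounts and 6 at 1.5-fold. The 0 lower became 4 (pseudocount 0.1), 7 (0.01) and 1 (1.5-fold). Shares of all loci at these settings were not calculated either. Of 455 alternative values of single genes, 380 stayed within these limits and 75 moved, and 447 kept their sign while 8 did not. The 380 include sums over loci, and receptor gene subtraction after hair plucking and in wounds, where the receptor median was 0. Those values could not move, so the count overstates how stable the single genes were.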
